A study of Mus musculus with 3 samples.

Results

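Mesothelial cells were recovered as a rare population of the ascending aorta, 61 of the 26158 cells that passed the quality filter. Mesothelium is the flat epithelium that lines the body cavities and covers the organs inside them, and its pericardial sheet wraps the heart and the first stretch of the ascending aorta. Mesothelial cells rest on a basement membrane, carry microvilli and keratin filaments, secrete a lubricating fluid with proteoglycan and hyaluronan, and are known to shed complement, protease inhibitors and growth factors into that fluid. In the embryo the sheet over the heart, the epicardium, is marked by the transcription factors *Wt1*, *Tbx18* and *Tcf21* and by the retinoic acid-producing enzyme *Aldh1a2*.

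The cells came from 3 droplet single-cell libraries of ascending aortas of male C57BL/6J mice at P45. One was made from WT mice, one from *Fbn1* mgR/mgR mice (mgR), which carry a hypomorphic allele of fibrillin-1 and are a model of Marfan syndrome, and one from *Fbn1* mgR/mgR mice given losartan, a blocker of the angiotensin II type I receptor, at 0.6 g/L in the drinking water from P16 (mgR-LOS). Aortas were pooled within a library, each condition had a single library, and the labels do not say whether the mgR mice drank vehicle, so no test between conditions was possible and intervals below cover counting error only. *Fbn1* itself was at 813 CPM (counts per 1000000 UMIs of the summed cells) in WT fibroblasts and at 319 and 271 in the mutant libraries. Both library ratios below share mgR, as numerator in mgR over WT and as denominator in mgR-LOS over mgR.

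A cell was called mesothelial when *Upk3b*, *Msln* and *Lrrn4* together reached at least 3 unique molecular identifiers (UMIs) per 10000 UMIs of the cell, *Ptprc* (the leukocyte antigen CD45) and *Pecam1* (the endothelial antigen CD31) were both at 0, and 6 contractile genes of smooth muscle cells (SMCs) were under 100 per 10000. *Upk3b* encodes a uroplakin of the apical membrane, *Msln* the surface glycoprotein mesothelin and *Lrrn4* a leucine-rich repeat membrane protein. The WT library held 11 mesothelial cells among 5361 (0.205%, 95% Clopper-Pearson interval 0.102 to 0.367), mgR 30 among 8076 (0.371%, 0.251 to 0.530) and mgR-LOS 20 among 12721 (0.157%, 0.0961 to 0.243). The intervals of WT and mgR overlapped, as did those of WT and mgR-LOS, and the mgR interval lay just above that of mgR-LOS. With no upper limit on genes, chosen after seeing the data, the shares were 0.357% (0.218 to 0.550), 0.430% (0.303 to 0.593) and 0.247% (0.169 to 0.349), and the last pair of intervals overlapped. That pair also overlapped with a marker sum of at least 6, with at least 3 marker UMIs in the cell and at a mitochondrial limit of 5%. Median depth was 10494 UMIs and 3192 genes in WT, 12060 and 3561 in mgR and 7383.5 and 2632.5 in mgR-LOS, and the summed counts were 108735, 360149 and 153622 UMIs. Fewer recovered cells and fewer cells in the tissue cannot be told apart here.

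The promoters of the rule's genes *Upk3b* and *Lrrn4*, and of the paired keratin genes *Krt8* and *Krt18*, are shown because these 4 genes mark the cells and each was under 1 CPM in the fibroblasts of every library. Each window runs from 250 bases before to 50 after the annotated start, 5′ to 3′ along the gene, from RefSeq on GRCm38.p6. Capitals mark matches, on either strand, to 5 motifs that were searched: the TEAD motif GGAATG, a WT1-like motif GNGTGGGNG, the motif GATAA of its namesake factor family, the AP-1 motif TGANTCA and the nuclear receptor motif AGGTCA.

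*Upk3b*, chr5:136038246-136038545, plus strand: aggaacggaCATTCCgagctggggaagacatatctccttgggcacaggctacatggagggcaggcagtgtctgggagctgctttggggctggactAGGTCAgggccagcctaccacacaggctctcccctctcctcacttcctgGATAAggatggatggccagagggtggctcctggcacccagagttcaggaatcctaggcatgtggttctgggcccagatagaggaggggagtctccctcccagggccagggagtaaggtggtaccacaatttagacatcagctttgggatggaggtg

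*Lrrn4*, chr2:132880813-132881112, minus strand: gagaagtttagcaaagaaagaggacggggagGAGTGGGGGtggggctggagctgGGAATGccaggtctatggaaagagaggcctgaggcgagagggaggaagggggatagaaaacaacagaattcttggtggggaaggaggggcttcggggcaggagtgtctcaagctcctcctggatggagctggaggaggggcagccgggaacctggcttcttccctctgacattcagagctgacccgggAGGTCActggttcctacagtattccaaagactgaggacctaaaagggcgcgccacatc

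*Krt8*, chr15:102004293-102004592, minus strand: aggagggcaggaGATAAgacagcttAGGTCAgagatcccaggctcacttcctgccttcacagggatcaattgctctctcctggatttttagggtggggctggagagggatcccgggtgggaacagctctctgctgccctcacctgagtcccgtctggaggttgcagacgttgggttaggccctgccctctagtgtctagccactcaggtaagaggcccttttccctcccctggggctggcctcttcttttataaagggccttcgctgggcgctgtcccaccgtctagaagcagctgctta

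*Krt18*, chr15:102027966-102028265, plus strand: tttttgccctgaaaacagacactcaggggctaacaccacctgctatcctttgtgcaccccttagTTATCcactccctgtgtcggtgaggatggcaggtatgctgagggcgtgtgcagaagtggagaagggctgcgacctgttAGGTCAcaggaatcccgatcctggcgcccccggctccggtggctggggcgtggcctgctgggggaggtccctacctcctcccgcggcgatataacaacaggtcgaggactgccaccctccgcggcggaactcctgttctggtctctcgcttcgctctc

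The motif AGGTCA was present in these 4 windows and in 6 of all 15 windows searched, which covered 14 mesothelial genes, against 16.3% of the 32851 mouse promoters in the same table. It was absent from the windows of *Muc16*, *Bnc1*, *Lrp2*, *Chst4* and *Cst9*, which also had few or no UMIs in fibroblasts. Its share among the 4 shown thus depends on which genes were chosen. GATAA was in *Upk3b*, *Krt8* and *Krt18* and in 5 of all 15 windows (25.4% of promoters), and GGAATG in *Upk3b* and *Lrrn4* and in 4 of 15 (14.7%). GNGTGGGNG was in *Lrrn4* and in 4 of 15 (14.3%), and TGANTCA in 0 of the 4 shown and in 2 of 15, those of *Cldn15* and *Chst4* (7.81%). These are matches of letters in chosen windows, and binding was not measured. Promoters of *Msln* and *Krt19* were not analysed here.

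The values that chose the cells are given as a description. *Upk3b* (ENSMUSG00000042985, chromosome 5 from 136038496 to 136046487 on GRCm38) was at 2584 CPM in WT, 2010 in mgR and 2942 in mgR-LOS. *Msln* (ENSMUSG00000063011, chromosome 17 from 25748613 to 25754378) was at 2088, 1483 and 931 CPM, and *Lrrn4* (ENSMUSG00000043110, chromosome 2 from 132868305 to 132880891) at 864, 628 and 1016 CPM. The summed level of the 3 genes had a median of 61.9 per 10000 in WT, 33.0 in mgR and 44.1 in mgR-LOS. The 3 cells just inside the limit were all from mgR, at 3.71, 5.33 and 5.33 per 10000, and the cells just outside were at 2.62 (mgR-LOS), 2.42 (mgR) and 0.737 (WT). The lowest cells inside it were at 10.4 in WT and 19.3 in mgR-LOS. Of the 3 mgR cells, that at 3.71 rested on 3 UMIs of *Lrrn4* and had 0 of *Krt19*, *Gpm6a* and *Upk1b*, and one at 5.33, of 3755 UMIs, rested on 2 UMIs of *Upk3b* and had 0 of *Krt19*, *Krt18*, *Krt8*, *Gpm6a*, *Upk1b*, *Wt1*, *C3* and *Dcn*.

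*Krt19*, a mesothelial marker that the rule did not use, was present in 54 of the 61 cells. It encodes an acidic keratin of simple epithelia (ENSMUSG00000020911, chromosome 11 from 100140810 to 100148665). Mesothelial cells held it at 920 CPM in WT, 628 in mgR and 586 in mgR-LOS, and fibroblasts at 0.710, 2.89 and 4.01. Per cell, the lowest, median and highest *Krt19* levels were 3.64, 14.1 and 18.2 UMIs per 10000 in WT, 0, 3.72 and 20.1 in mgR, and 0, 5.20 and 14.9 in mgR-LOS. All 11 WT cells, 25 of 30 mgR cells and 18 of 20 mgR-LOS cells carried it, and the 3 libraries overlapped. After thinning every cell to 1000 UMIs, *Krt19* was seen in 27 of 61 mesothelial cells (44.3%, 31.5 to 57.6) and in 13 of 6018 fibroblasts (0.216%, 0.115 to 0.369). The same thinning gave 40 of 61 for *Gpm6a* against 3 fibroblasts, and 28 of 61 for *Upk1b* against 1. Without thinning the shares were 88.5%, 96.7% and 86.9%. *Calb2*, the calretinin gene used to stain mesothelium in pathology, had 0 UMIs in the 61 cells.

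**Figure D1:**
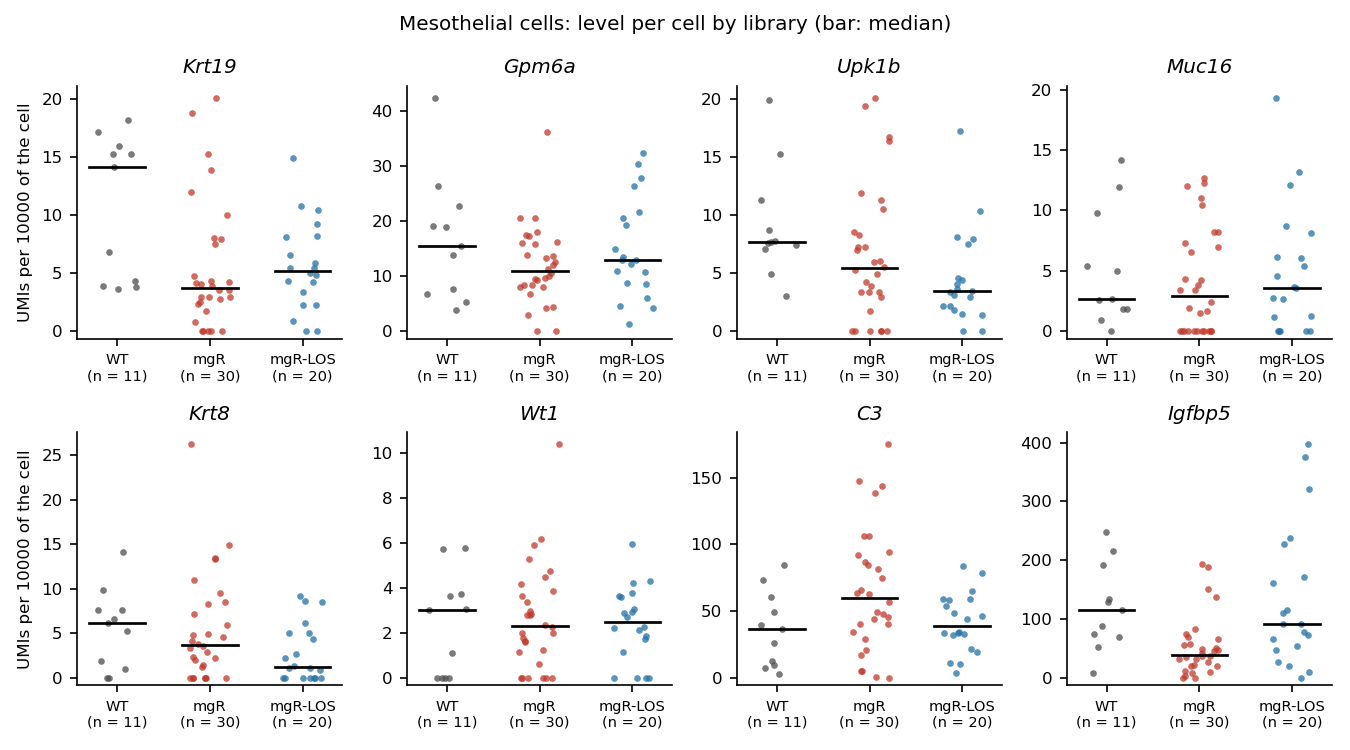
Level of 8 genes in each mesothelial cell, in UMIs per 10000 of the cell (vertical axes, linear), by library (horizontal axes); each point is a cell and bars are medians. *Krt19*, *Gpm6a* and *Upk1b* were found in most cells of every library with overlapping ranges, *Igfbp5* had its lowest median in mgR (39.4, against 114 in WT and 90.8 in mgR-LOS) and *C3* its highest (59.8, against 36.5 and 39.1).

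Markers of other cell types were examined as whole lists. Of 6 endothelial markers *Pecam1*, *Cdh5*, *Cldn5* and *Tie1* were at 0, and *Kdr*, the VEGF receptor 2 gene, alone made up nearly all of that list with 223 UMIs. Schwann cell and adipocyte lists of 4 genes each were wholly at 0. The SMC list, which the rule limits, summed to 736 CPM in WT, 872 in mgR and 1152 in mgR-LOS, against 39741, 25468 and 33791 in all other cells. The fibroblast list of 9 genes was present, at 8029, 9171 and 12934 CPM against 13895, 16709 and 16235 in all other cells, led by *Dcn* with 2266 UMIs. The immune list of 7 genes summed to 0, 722 and 65.1 CPM. A single mgR cell of 17006 UMIs, called a doublet, held 87 UMIs of *Cd74*, 43 of *C1qa*, 36 of *C1qb* and 46 of *Lyz2* while the 3 rule genes stood at 50.6 per 10000 in it. The 4 immune genes tested, *C1qa*, *C1qb*, *Lyz2* and *Cd74*, were called higher than in fibroblasts with that doublet in, and 0 of them were called higher without called doublets. The cardiomyocyte list of 6 genes summed to 855, 650 and 749 CPM, above the 206, 152 and 231 in all other cells, with 411 UMIs of *Myl7* in 35 cells and 0 of *Myh6*. *Myl7* and *Tnni3* were called higher than in fibroblasts, endothelial cells and all other cells, *Tnnt2* was called lower than in fibroblasts and all other cells, and the part of heart muscle RNA in these results was not tested. Among other epithelial keratins *Krt14* had 16 UMIs and *Krt5* 0, and the airway and alveolar genes *Scgb1a1* and *Sftpc* were at 0. Doublets were kept. A neighbor-based score called 3, 1 and 8 of the 11, 30 and 20 cells as doublets, against 4.29%, 6.46% and 10.2% of all cells, and without them 2259 genes were called against fibroblasts in place of 2574. No barcode was a mesothelial cell in more than one library.

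To describe what sets the cells apart, counts were summed per library for mesothelial cells, for 6019 fibroblasts, for 509 endothelial cells and for all other cells, and compared with edgeR's quasi-likelihood test with library as a block over the 3 libraries (Benjamini-Hochberg adjustment at 0.05). Genes that chose either side were not tested. Fibroblasts and endothelial cells were taken only from cells under the limit of the rule's summed genes. Cells chosen on 3 mesothelial genes are bound to differ in genes that go with them, so the calls describe the class and do not stand as evidence for it. Approximate standard errors (SE) are the log2 fold change divided by the square root of the F statistic. Against fibroblasts, 1021 of 12026 genes were higher (8.49%) and 1553 were lower (12.9%), 21.4% in all. Against endothelial cells, 963 of 7727 were higher (12.5%) and 1059 lower (13.7%), 26.2% in all, and against all other cells 1068 of 14386 were higher (7.42%) and 1825 lower (12.7%), 20.1% in all. The median log2 fold change over all genes tested was −0.15, −0.06 and −0.27. DESeq2 called fewer genes, 1607, 1319 and 1923, and split them more evenly, 767 higher and 840 lower against fibroblasts, 657 and 662 against endothelial cells, and 921 and 1002 against all other cells.

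Of 25 tested genes of a list of other mesothelial genes, 24 were higher than in fibroblasts and *Prg4* was lower (median log2 fold change 6.15). Of the 8 keratins of a second list, *Krt5*, *Krt15* and *Krt20* had 0 UMIs in the 61 cells and the other 5 had enough counts for the test. A gene with few counts in fibroblasts passed the count filter only through its mesothelial counts and had to be higher, so the counts and medians of all lists set against fibroblasts here are a description (keratin median 10.57, and 10.48 with genes at 0 set to their bound). *Krt8* and *Krt18*, the partner keratins of simple epithelia, lie next to each other on chromosome 15, *Krt8* (ENSMUSG00000049382) from 101996698 to 102004482 and *Krt18* (ENSMUSG00000023043) from 102028180 to 102032027. *Krt8* was at 423 CPM in WT, 586 in mgR and 325 in mgR-LOS, with 307 UMIs in 61 mesothelial cells and 2 in all fibroblasts, a ratio of 15098 (95% interval 4144 to 125230). *Krt18* was at 497, 614 and 417 CPM against 0.868, 0.0390 and 0.218, and endothelial cells held it at 36.9, 45 and 17.4. *Krt7* was at 478, 400 and 182 CPM (log2 fold change 11.34). It had few counts in fibroblasts, so this fold is a description too. *Krt14* was called with 16 UMIs, from 7 cells, and was not tested without the mgR library or without mgR-LOS.

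*Muc16*, the CA-125 membrane mucin of serosal surfaces, was at 460, 480 and 430 CPM in WT, mgR and mgR-LOS, with 289 UMIs against 1 in all fibroblasts. *Upk1b*, another uroplakin, was at 864, 736 and 456 CPM (log2 fold change 12.54). It also had few counts in fibroblasts, so this fold is a description. *Gpm6a*, a membrane glycoprotein of filopodia, was at 1536, 1155 and 1374 CPM against 0.473, 1.05 and 0.785. Of 10 tested genes of the apical surface and microvilli 6 were higher, among them *Ezr* (883, 1186 and 924 CPM against 21.8, 16.4 and 18.6), which encodes ezrin, a linker of microvilli to actin, and 1, its relative *Msn*, was lower (median of the list 3.69). Of 19 tested junction and polarity genes 12 were higher and 3 lower (median 2.66). *Cldn15*, a claudin of tight junctions, was at 607, 439 and 501 CPM, *Cdh3* (P-cadherin) at 36.8, 94.4 and 143, and *Dsg2* (desmoglein 2) at 55.2, 47.2 and 52.1, and *Cdh2* (N-cadherin) was lower, at 0, 2.78 and 6.51 CPM against 26.4, 36.9 and 31.5. Of 9 tested water and ion transport genes 7 were higher (median 3.30), led in level by the water channel *Aqp1* at 2014, 1066 and 1959 CPM against 47.0, 20.4 and 24.0. Without the mgR library 4 of 8 tested were higher.

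Among the 10 genes named by a rule of size, *Cst9*, a cystatin, *Lrp2*, the endocytic receptor megalin, *Tm4sf5*, a tetraspanin-like protein, and *Ckmt1*, a mitochondrial creatine kinase, each had 1 UMI in all fibroblasts. *Chst4*, a sulfotransferase, and *Prr15l* had 0, which puts them at least 2164-fold and 1541-fold higher against a floor of 3 UMIs over the class. *Bnc1*, the zinc-finger factor basonuclin 1, had 94 UMIs against 2. *Cst9* was at 1472 CPM in WT, 505 in mgR and 71.6 in mgR-LOS, and *Lrp2* at 147, 225 and 169. The 5 lower genes, the dipeptidase *Dpep1*, the matricellular gene *Ccn5*, *Cthrc1*, *Hsd11b1* and the cartilage protein *Chad*, had 0 UMIs in the 61 cells, at least 69.0, 60.1, 35, 33.5 and 31.4-fold lower over the class at the same floor. *Cthrc1* did not pass DESeq2 (adjusted p = 0.0599), and the other 14 genes kept their calls under every alternative in which they were tested. The 10 higher genes had few or no UMIs in fibroblasts and the 5 lower genes 0 in mesothelial cells. Their kept calls are a description.

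Transcription factors of epicardium and mesothelium went in both directions. Of 14 tested, 6 were higher and 2 were lower (median 0.53). *Wt1* was at 313, 283 and 241 CPM against 1.18, 7.57 and 4.97, *Bnc1* at 193, 144 and 137, *Tbx18* at 184, 158 and 215 against 14.5, 18.1 and 17.1, and the cardiac and mesodermal factor *Gata5* at 73.6, 52.8 and 39.1. *Bnc2* and *Gata4* were also higher, the latter by 1.00 log2 (approximate SE 0.32, adjusted p = 0.0108 by edgeR). *Tcf21*, which the embryonic epicardium also uses, was lower, at 36.8, 11.1 and 32.5 CPM against 117, 128 and 110, and *Tbx20* was lower too. Among 15 tested retinoid genes *Aldh1a2* was higher, at 349, 378 and 501 CPM against 3.79, 9.60 and 6.80, as was *Rarres2*, the secreted chemoattractant chemerin, whereas 7 were lower (median −1.36), among them the retinol carrier *Rbp4*.

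The matrix lists went the other way. Of 20 interstitial matrix genes 0 were higher than in fibroblasts and 18 were lower (median −2.35), although many were far from absent. *Col1a1* was at 671, 872 and 1263 CPM against 5918, 7794 and 8535, and *Col3a1* at 2842, 3165 and 4355 against 8565, 10147 and 9997. *Dcn* (decorin) was at 3476, 3288 and 4583 against 13696, 9026 and 13087, while *Lum* (lumican) was at 0, 16.7 and 32.5 against 2393, 1914 and 1793. In basement membrane genes the calls were split, with 5 of 19 higher and 12 lower (median −0.93). *Nid2* was at 101, 147 and 176 CPM against 13.8, 23.3 and 23.0 and was higher, whereas its paralog *Nid1* was at 36.8, 36.1 and 32.5 against 478, 571 and 565 and was lower. Of the laminin chain genes, *Lama5* and *Lamb3* were among the higher and *Lama2*, *Lama4*, *Lamb1*, *Lamb2* and *Lamc1* among the lower. Of 10 tested genes of the epithelial-mesenchymal transition 0 were higher and 9 lower (median −2.60), among them *Vim*, *Snai2* and *Zeb1*. *Fbn1* (ENSMUSG00000027204, chromosome 2 from 125300594 to 125507993), the mutated gene, was a low gene here. It was at 129 CPM in WT (14 UMIs), 27.8 in mgR (10) and 32.5 in mgR-LOS, against 813, 319 and 271 in fibroblasts. The mesothelial mgR level was 0.216 of that of WT (0.0857 to 0.522).

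**Figure D2:**
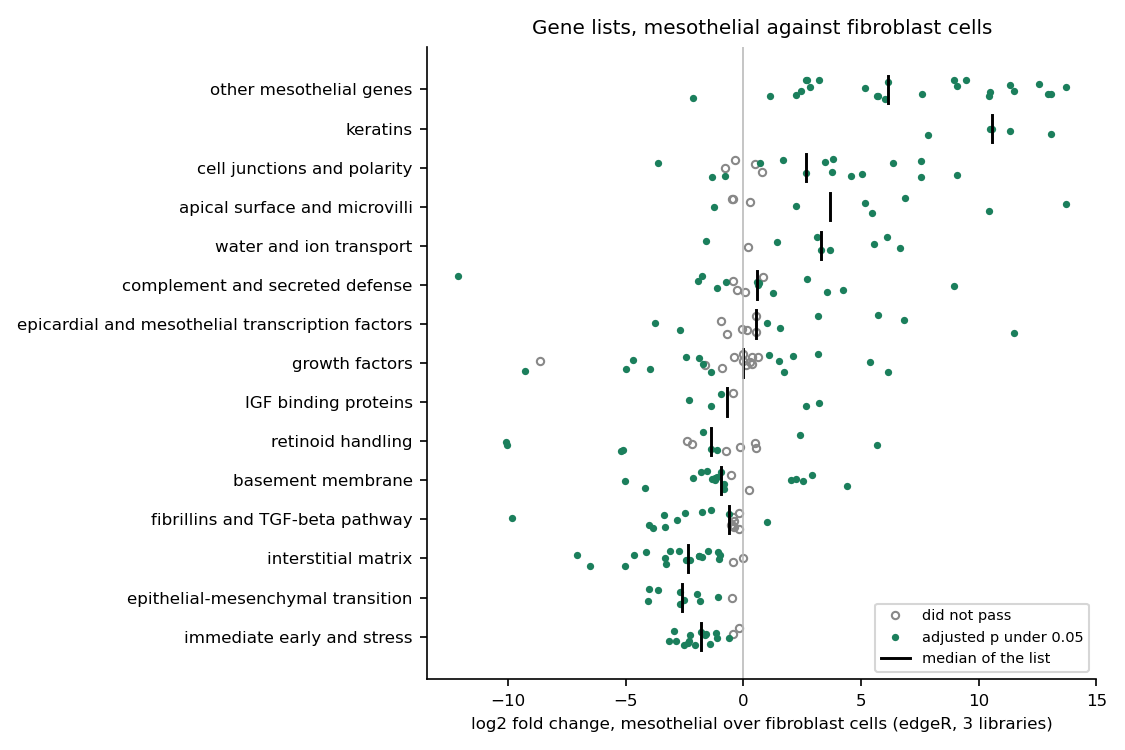
Log2 fold change of mesothelial over fibroblast cells (horizontal axis) for each tested gene of 15 lists (rows); filled points passed edgeR's quasi-likelihood test, open points did not, and bars are list medians. The medians ran from 10.57 for keratins to −2.60 for genes of the epithelial-mesenchymal transition, and basement membrane genes fell on both sides of 0.

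Secreted products were examined next. Of 17 tested complement and defense genes 8 were higher than in fibroblasts and 5 lower (median 0.56). This split depended on the setting, with 3 higher and 2 lower without the mgR library, 4 and 4 without mgR-LOS, 5 and 6 without WT and 4 and 1 by DESeq2. *C3* (ENSMUSG00000024164, chromosome 17 from 57203970 to 57228136), the central complement component, was at 3679 CPM in WT, 6733 in mgR and 3860 in mgR-LOS against 450, 729 and 613 (log2 fold change 2.71, approximate SE 0.17, adjusted p = 2.46e-53 by edgeR). *C2* was at 469, 419 and 553 CPM against 12.6, 53.3 and 47.8. *Slpi*, a secreted leukocyte protease inhibitor, was at 166, 977 and 26 CPM against 0.552, 1.21 and 0.0872, but lay in 12 of the 61 cells. Of the 6 insulin-like growth factor binding proteins *Igfbp5* and *Igfbp6* were higher and *Igfbp3*, *Igfbp4* and *Igfbp7* lower (median −0.71). *Igfbp5* (ENSMUSG00000026185, chromosome 1 from 72857932 to 72874884) was at 11128, 5203 and 12641 CPM against 790, 1418 and 1534, and *Igfbp6* (ENSMUSG00000023046, chromosome 15 from 102144362 to 102149511) at 7532, 2549 and 2604 against 204, 430 and 378. Of 26 tested growth factors 7 were higher and 8 lower (median 0.0027). *Rspo1*, an enhancer of Wnt signaling, was at 451, 333 and 391 CPM against 2.92, 5.97 and 4.54, *Wnt4* was at 36.8, 167 and 78.1, and *Wnt2b*, *Fgf1*, *Fgf9*, *Sema3c* and *Sema3d* were also higher. Among 16 cytokines and chemokines *Il18* and *Cxcl13* were higher and 8 were lower (median −1.13), including *Cxcl12*, *Il6* and *Ccl11*, although 80.0% of the mgR *Cxcl13* UMIs came from a single cell. Of 10 tested genes for hyaluronan and lubrication *Ptgs1* was higher and 5 were lower (median −0.87). Of 11 tested genes for fibrinolysis and coagulation *Tfpi* and *S100a10* were higher and 4 lower (median −0.80). Of 19 tested fibrillin and TGF-beta pathway genes *Tgfb2* was higher and 10 were lower (median −0.60), and of 5 renin-angiotensin genes *Enpep* was higher and *Ace* lower (median 1.32). In 12 interferon response genes 3 were higher and 1 lower (median 0.29).

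**Figure D3:**
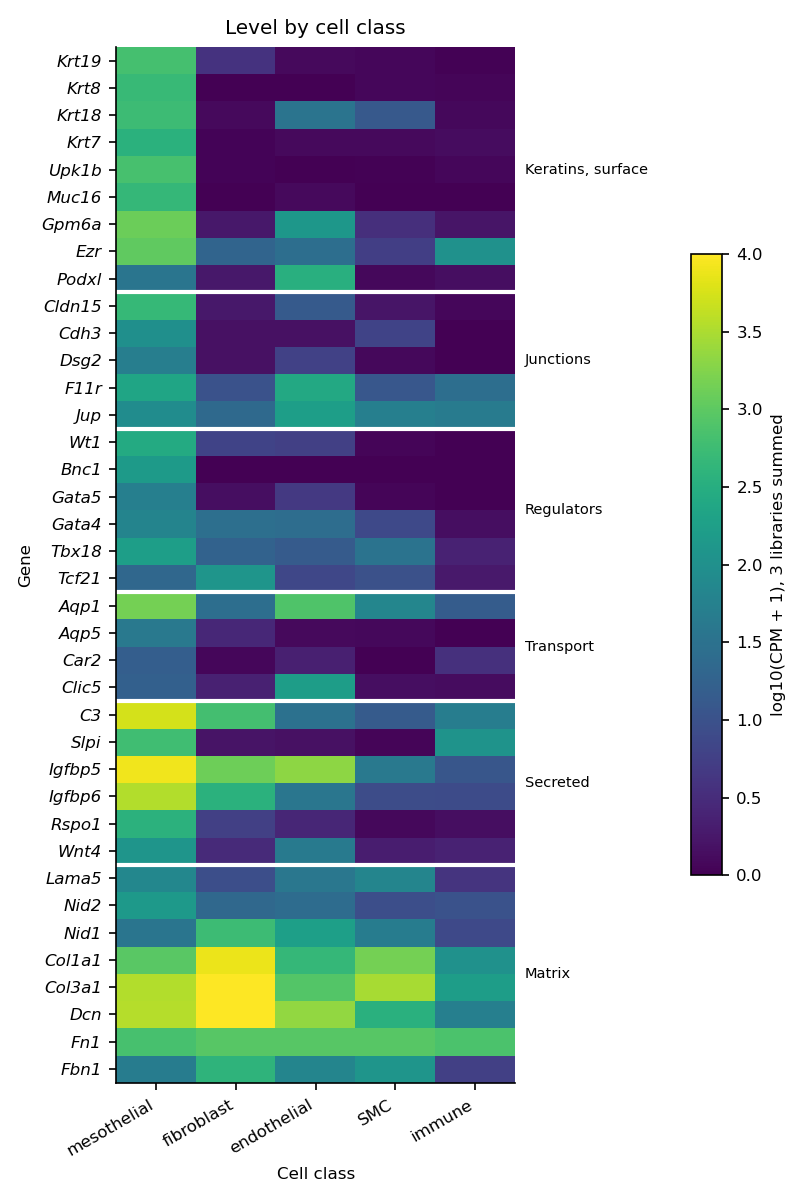
Pooled level of 38 genes (rows, grouped by role) in 5 cell classes (columns) as log10(CPM + 1), with counts of the 3 libraries summed and colors capped at 4. *Krt8*, *Krt7*, *Upk1b* and *Muc16* were near 0 outside the mesothelial column, *Krt18* was also seen in endothelial cells and SMCs, *Igfbp5* and *C3* were bright in it, and collagen genes were brightest in fibroblasts.

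Endothelial cells, the other epithelium-like sheet of the aorta, differed from mesothelial cells in many of the same genes and were close to them in others. *Upk1b*, *Krt8*, *Cst9*, *Lrp2* and *Tm4sf5* had 0 UMIs in 509 endothelial cells, at least 936, 670, 770, 268 and 247-fold lower than in mesothelial cells at a floor of 3 UMIs over the class, as did the iron reductase *Cybrd1*, the surface protein *Plet1* and *Mbp* (at least 303, 275 and 264-fold). *Krt19* and *Muc16* had 1 UMI each. In turn *Ctla2a*, *Emcn* (endomucin), *Ecscr*, *Lrg1* and *Icam2* had 0 UMIs in mesothelial cells, at least 235, 113, 107, 88.3 and 83.4-fold lower. Genes with 0 or 1 UMI in a class passed the count filter only through the other class, so these folds are a description. *Kdr* was at 423, 369 and 286 CPM in mesothelial cells and 194, 319 and 231 in endothelial cells, which did not pass the test (log2 fold change 0.54, approximate SE 0.21, adjusted p = 0.0817 by edgeR). Junction genes were split, 6 of 15 higher and 2 lower (median −0.06), *Podxl* and *Clic5* were higher in endothelial cells, and *Aqp1* was higher in mesothelial cells by 1.09 log2 (approximate SE 0.21, adjusted p = 0.00107 by edgeR). Interstitial matrix genes, lower than in fibroblasts, were 8 of 20 higher and 6 lower here (median −0.03).

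Against all other cells, *Lrp2*, *Muc16*, *Bnc1*, *Cst9*, *Chst4*, *Upk1b*, *Prr15l*, *Ckmt1*, *A730046J19Rik* and *Krt8* were the 10 highest by the rule, with 9 to 85 UMIs of each in all other cells together. *Cspg4*, *Ccn5* and *Plin4* had 0 UMIs in mesothelial cells, and *Gask1b* and *Myom1* 1 each. All these genes had few or no UMIs in the lower class and are given as a description. The ion channel genes *Cftr* and *Scnn1a*, which carry chloride and sodium across epithelia, had 8 and 6 UMIs in 6 and 4 of the 61 cells. Both were called higher than in all other cells, on counts too few to read a difference from.

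The 61 cells were not uniform. Across them *Sulf1*, a heparan sulfate sulfatase, and *Igfbp5* varied together (Spearman's rho 0.77; 0.92 in 11 WT, 0.67 in 30 mgR and 0.85 in 20 mgR-LOS cells), as did *Rarres2* and *Igfbp6* (0.72; 0.86, 0.53 and 0.74). *Rarres2* and *Fn1*, the fibronectin gene, varied in opposite directions (−0.65; −0.40, −0.64 and −0.60). *Lgals7* (galectin 7) and *Dmkn* (dermokine), genes better known from stratified epithelia, went together (0.67; 0.54, 0.73 and 0.71). *Lgals7* was in 39 cells, with a median of 2.27 per 10000 and a highest value of 71.7. *Krt7* followed *Krt19* (0.61), but *Wt1* and *C3* did not track *Krt19* (0.07 and −0.21, with both signs among libraries). Cells of a library share its depth and free RNA, so these are descriptions, and 13 pairs, chosen after their values were seen, were computed.

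Mesothelial levels in the 3 libraries are set side by side, with ratios for genes of at least 100 CPM in either library. Between mgR and WT, 151 of 1948 genes were at least 2-fold higher (7.75%) and 96 at least 2-fold lower (4.93%), 12.7% in all. Between mgR-LOS and mgR, 134 of 1950 were at least 2-fold higher (6.87%) and 163 lower (8.36%), 15.2% in all. The median ratio was 0.988 and 0.973. At a mitochondrial limit of 5%, which left 3 WT, 19 mgR and 9 mgR-LOS cells, the balance between mgR and WT turned, with 321 genes higher and 397 lower. Of 25 other mesothelial genes over the floor, 2 were at least 2-fold higher and 2 lower in mgR over WT, and 1 was higher and 5 lower in mgR-LOS over mgR. *Krt19* gave ratios of 0.682 (0.537 to 0.872) for mgR over WT and 0.934 (0.723 to 1.20) for mgR-LOS over mgR. Of the 4 keratins over the floor 0 passed 2-fold in mgR over WT and 1, *Krt7* at 0.456, did in mgR-LOS over mgR, and of 5 transcription factors 0 did in either. *Wt1* gave ratios of 0.906 (0.609 to 1.38) and 0.850 (0.567 to 1.25).

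The 5 largest ratios of mgR over WT were *H2-Aa*, *Dnajb1*, *Fn1*, *H2-Eb1* and *Prg4*. The class II genes rest on 1 cell, which held 83.9% and 91.8% of their mgR UMIs. *Fn1* (ENSMUSG00000026193, chromosome 1 from 71585520 to 71653200) was at 55.2 CPM in WT, 830 in mgR and 768 in mgR-LOS, a ratio of 15.0 (6.83 to 41.3) for mgR over WT and of 0.925 (0.741 to 1.15) for mgR-LOS over mgR. It was seen in 3 of 11, 26 of 30 and 11 of 20 cells, with highest values of 2.86, 47.1 and 46.2 per 10000. In fibroblasts *Fn1* was at 552, 1320 and 668 CPM. *Prg4* (ENSMUSG00000006014, chromosome 1 from 150449412 to 150466165), the lubricating proteoglycan lubricin, had 0 UMIs in WT, 141 in mgR, from 13 cells, and 6 in mgR-LOS, so that mgR was at least 14.2-fold higher than WT against a floor of 3 UMIs in that library. In fibroblasts *Prg4* was at 781, 494 and 235 CPM and so did not have its highest level in mgR. The 5 smallest ratios of mgR over WT, *Cstdc2*, *Spink2*, *BC051226*, *Tnni3* and *Cdk16*, rested on 11 to 15 UMIs in WT, and for *Cstdc2* and *Tnni3* 91.7% of these came from 1 cell. *Igfbp6* had a ratio of 0.338 (0.308 to 0.372) and *Igfbp5* of 0.468 (0.435 to 0.503) for mgR over WT.

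The 5 largest ratios of mgR-LOS over mgR, *Top2a*, *Ube2c*, *Cdk1*, *Cenpf* and *Prc1*, are genes of the dividing cell, and 94.1% to 100% of their mgR-LOS UMIs came from a single cell of 14074 UMIs, in which the rule's genes stood at 49.0 per 10000. Of the cell cycle list, 5 of 9 tested genes were higher than in fibroblasts over the 3 libraries and 0 without mgR-LOS. That fit leaves out all 20 cells of the library, and leaving out the single cell alone was not tested. The same cell held 83.3% to 96.9% of the UMIs of *Birc5*, *Cdk1*, *Mki67* and *Top2a*. *Ccnb2*, also called, was highest in an mgR cell, at 8.92 per 10000 against 4.26 in mgR-LOS. The 5 smallest ratios of mgR-LOS over mgR were *Slpi*, *Atf3*, *Fosb*, *Has1* and *Egr1*. *Slpi* (ENSMUSG00000017002, chromosome 2 from 164354070 to 164389095) had a ratio of 0.0266 (0.00722 to 0.0688) for mgR-LOS over mgR and of 5.90 (3.68 to 10.1) for mgR over WT, with UMIs in 3 of 11 WT, 7 of 30 mgR and 2 of 20 mgR-LOS cells. *C3* gave 1.83 (1.65 to 2.04) for mgR over WT and 0.573 (0.523 to 0.627) for mgR-LOS over mgR. The complement and defense list as a whole was at 8580 CPM in WT, 13211 in mgR and 8827 in mgR-LOS, and 5 of 13 genes over the floor were at least 2-fold higher in mgR than in WT in mesothelial cells (*Slpi*, *Lcn2*, *Saa3*, *Cd55* and *C4b*). Of all genes over the floor, 7.75% were at least 2-fold higher. *Saa3* was seen in 2 mgR cells, and 97.9% of its UMIs came from 1 of them. The summed list was also higher in mgR than in WT in the other classes, at 5013, 6610 and 5564 CPM in fibroblasts (WT, mgR and mgR-LOS), 2804, 3502 and 3556 in endothelial cells, 731, 997 and 1002 in SMCs and 1427, 1866 and 1033 in immune cells.

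*Atf3*, *Fosb* and *Egr1* belong to the immediate early genes, which cells switch on within minutes of a stimulus, tissue dissociation included. A list of 17 such genes summed to 5426 CPM (4997 to 5882) in WT, 14847 (14451 to 15250) in mgR and 2291 (2058 to 2544) in mgR-LOS. The ratio was 2.74 (2.51 to 2.98) for mgR over WT and 0.154 (0.138 to 0.172) for mgR-LOS over mgR (0.297, 0.282 to 0.313, with no upper limit on genes), and 11 of 17 genes were at least 2-fold higher in the first and 15 of 17 at least 2-fold lower in the second. Over all genes above the floor these shares were 7.75% and 8.36%. In fibroblasts the list was at 16716, 18260 and 19552 CPM with ratios of 1.09 and 1.07, and in SMCs at 16448, 14954 and 15689. Per mesothelial cell the median was 15.6 per 10000 in WT, 34.8 in mgR and 22.2 in mgR-LOS, so that mgR was highest by either measure while WT and mgR-LOS changed order. The highest cells reached 148, 497 and 50.3. In mgR 7 of 30 cells lay above the median fibroblast of their library, and in WT and mgR-LOS 0 of 11 and 0 of 20 did. These 7 mgR cells stood at 318 to 497 per 10000, against an upper quartile of 81.6 over the 30 cells. The summed mgR level leans on them, and the ratios and gene counts were not computed without them. The WT sum leans on cells at 120 and 148, against an upper quartile of 38.7. Compared with fibroblasts over the 3 libraries, 15 of the 17 genes were lower and 0 higher (median −1.79), and 16 were lower without the mgR library, 13 by DESeq2 and 5 in a fit with no library block. Endothelial cells had the list at 9850, 10288 and 9985 CPM, and against them 3 of 17 genes were lower and 0 higher (median −0.51).

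**Figure D4:**
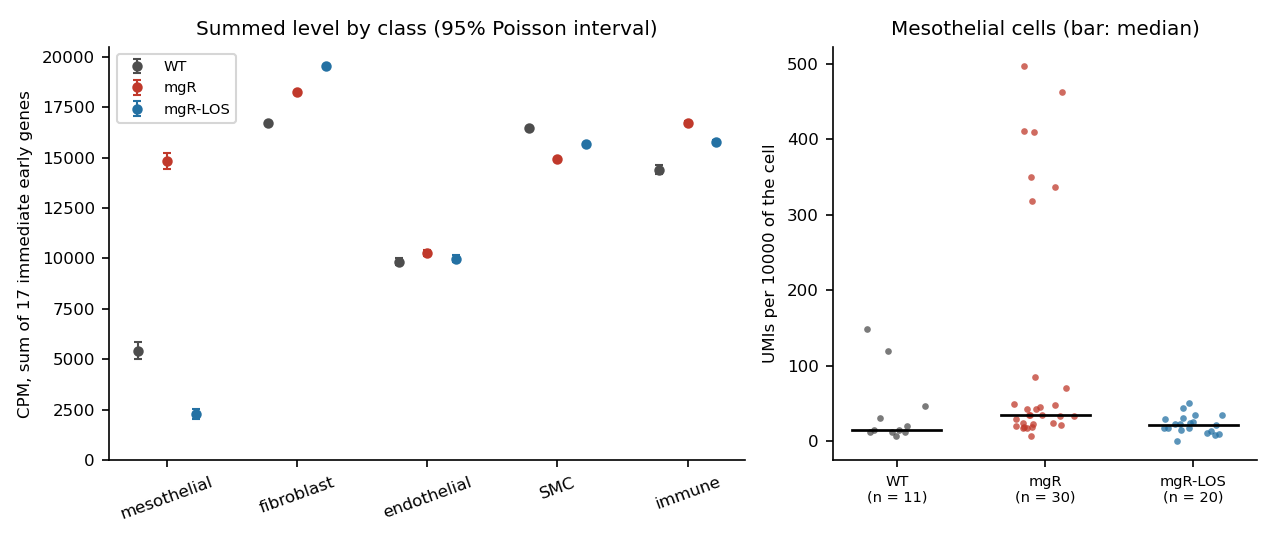
Left, summed CPM of 17 immediate early genes (vertical axis from 0) in 5 cell classes by library, with 95% Poisson intervals; right, the same list per mesothelial cell in UMIs per 10000, with medians as bars. The mesothelial sums span 2291 to 14847 while fibroblast and SMC sums stay between 14954 and 19552 and endothelial sums between 9850 and 10288. On the right, 7 mgR cells stand at 318 to 497 per 10000.

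A further 28 barcodes met the marker rule but had over 5000 genes and were outside the filter, 9 from WT, 7 from mgR and 12 from mgR-LOS, with median UMIs of 34367, 30701 and 29016. Their counts entered the values above only under the alternative with no upper limit on genes, and they give a second look at the same 3 libraries, though not at other mice, and whether they hold more than 1 cell was not tested. They carried *Krt19* at 1232, 795 and 939 CPM. In them *Slpi* was at 106, 1776 and 409 CPM, *C3* at 2611, 9001 and 4308, and *Prg4* at 3.40, 1476 and 23.5, each highest in mgR as in the 61 cells. *Prg4* and *Slpi* were seen in 4 of the 7 mgR barcodes each, and 86.0% of the *Slpi* UMIs of mgR-LOS came from 1 barcode. *Fn1* was at 136, 755 and 373 CPM, again lowest in WT. *Igfbp5* was at 11455, 10492 and 16595 CPM, lowest in mgR as in the 61 cells but with a smaller gap to WT, and *Igfbp6* at 4228, 2752 and 5945. The highest *Igfbp6* level was in mgR-LOS here but in WT in the 61 cells. The immediate early list was at 5144, 6097 and 3940 CPM, so that the libraries were much nearer to each other than in the 61 cells.

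**Figure D5:**
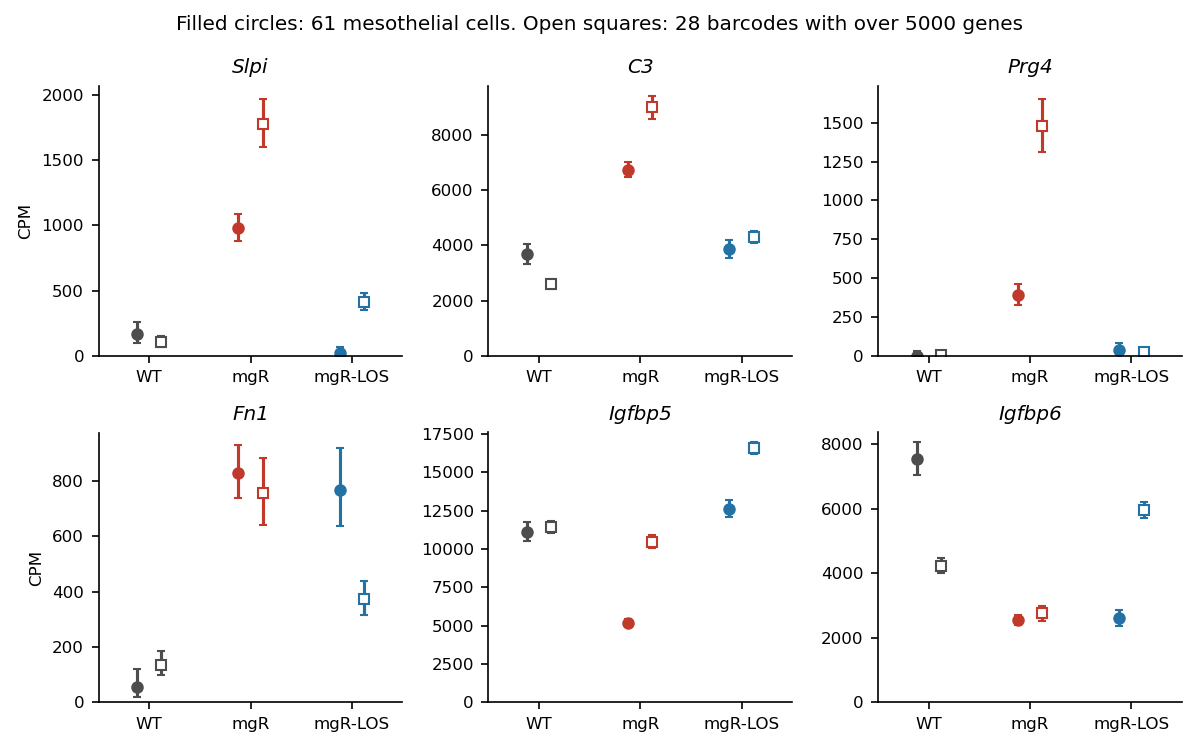
CPM (vertical axes from 0) of 6 genes by library in the 61 mesothelial cells (filled circles) and in 28 barcodes with over 5000 genes that met the same marker rule (open squares), with 95% Poisson intervals. *Slpi*, *C3* and *Prg4* were highest in mgR in both sets, *Fn1* lowest in WT in both, and *Igfbp5* was lowest in mgR in both, with a smaller gap to WT among the 28 barcodes. *Igfbp6* differed between the sets, highest in WT in the 61 cells and in mgR-LOS in the 28 barcodes.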

How the data were processed

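Each library held 3' gene expression counts of single cells from pooled ascending aortas, made by the authors with Cell Ranger. The deposited values are UMI counts per gene and barcode, not normalized. Per the file headers the WT and mgR matrices came from version 5.0.1 and the mgR-LOS matrix from version 6.0.1, and the submitters' processing notes name 6.0.1 and mm10. WT, mgR and mgR-LOS had 7858, 10657 and 14663 barcodes, and their totals over 32285 genes were 83338726, 123956320 and 121436873 UMIs. A quality filter of 600 to 5000 genes and no more than 10% of UMIs from mitochondrial genes left 5361, 8076 and 12721 cells. Libraries shared 22 to 46 barcodes, and 1 mesothelial barcode occurred in a second library. The members and gene lists were chosen with earlier results of these data known.

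Fibroblasts had *Dpt*, *Serpinf1* and *Clec3b* at 5 or more UMIs per 10000, and endothelial cells *Pecam1*, *Cdh5* and *Cldn5*. Counts were summed per class and library and tested with edgeR 4.0.16 (quasi-likelihood, TMM, filterByExpr, library as a block, Benjamini-Hochberg). The mgR-LOS sum was made by another version of Cell Ranger, so version, library and condition cannot be told apart. The method was tested on simulated data. Named genes were the 10 highest and 5 lowest called genes with at least 50 CPM in the higher class of every library, the 5 largest and smallest library ratios whose intervals left out 1, and listed genes. Intervals are exact (Clopper-Pearson, Poisson, or conditional binomial, 95%) and cover counting error only, and a gene at 0 was given a floor of 3 UMIs over the class. Doublets were scored against simulated mixtures of cells, with scikit-learn 1.9.0 on 10 principal components, and kept. Other tools were R 4.3.3, DESeq2 1.42.0, Python 3.11.15, scipy 1.17.1, numpy 2.4.6, pandas 2.3.3 and matplotlib 3.10.9. Positions are from GENCODE release M21 on GRCm38. Alternatives changed the normalization, the filters on genes and cells, the block, the test, and the libraries and doublets included.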

Additional observations from a re-analysis of the deposited data

Results flagged for a closer look

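The immediate early list differed between cell classes in how the libraries compared. For mgR-LOS over mgR it stood at 0.154 in mesothelial cells (0.297 with no upper limit on genes), against 1.07 in fibroblasts and 1.05 in SMCs, and for mgR over WT at 2.74, against 0.909 in SMCs. With a single library of each condition, the difference between classes was not tested. The mgR mesothelial sum leaned on 7 of 30 cells. Barcodes that met the marker rule but failed the quality filter numbered 17 in WT, 9 in mgR and 15 in mgR-LOS, which is 60.7%, 23.1% and 42.9% of all barcodes meeting the rule. Of these, 9, 7 and 12 had over 5000 genes and the others had too few genes or too many mitochondrial UMIs.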

How the results depend on the processing

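Of 660 alternatives to the 45 named class calls, 659 kept direction and call, 1 lost the call (*Cthrc1* by DESeq2) and 0 reversed. The named genes were picked as the largest fold changes of the same data, with few or no UMIs in the lower class. Their kept calls are a description. Of 114 alternatives to the other results, 30 moved. A mitochondrial limit of 5% left 31 cells and called 1707 genes against fibroblasts, 1909 against all other cells, and 718 (mgR over WT) and 465 (mgR-LOS over mgR) past 2-fold. DESeq2 called 1607, 1319 and 1923 genes, and fits without a library 1569 to 2119 (fibroblast), 1352 to 2159 (endothelial) and 1810 to 2282 (all others), lowest without mgR in each. With no replicate block for library the counts were 2100, 1992 and 2095. A floor of 200 CPM left 70 and 103 genes past 2-fold. With no upper limit on genes, chosen after seeing the data, there were 89 cells, 0.247% of mgR-LOS cells, and 159 and 151 genes past 2-fold. Shares at 2000 UMIs were 67.2% (*Krt19*), 91.4% (*Gpm6a*) and 44.8% (*Wt1*), and not thinned 88.5%, 96.7%, 86.9% (*Upk1b*) and 77.0% (*Wt1*). The immediate early ratio, whose alternatives were added after seeing the data, was 3.33 and 0.123 at the 5% limit, 2.25 and 0.132 without doublets, and 2.24 and 0.297 with no upper limit on genes, and 3.36 for mgR over WT without the top cell of each library. The cause of these shifts was not tested. Leaving out the top cell kept the other high mgR cells in, and a ratio without all of them was not computed. The 61 cells and single libraries limit every comparison, and 11 WT cells hold 108735 UMIs, so that genes under 100 CPM rest on fewer than 11 UMIs there.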
